A study of Mus musculus with 9 samples.

Results

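The cytosolic ribosomal protein genes encode the protein parts of the ribosomes that translate nuclear mRNAs. They were taken here as every gene whose symbol is Rps (small subunit) or Rpl (large subunit) with a number and an optional letter a or x, together with *Rplp0*, *Rplp1*, *Rplp2* and *Rpsa*, and without pseudogenes and like-genes. On the arrays, 57 of these genes had at least 1 feature (a set of probes read out as 1 value) that the platform annotation gives to that symbol alone, of 22180 genes measured in this way. Of the 57 genes, 22 encode proteins of the small subunit and 35 proteins of the large subunit. Where a gene had several such features, the one with the highest mean signal over all 9 arrays was taken. Features were thus chosen by their mean signal, whose level is described without a test. The family was also taken up with its lower mean on the mutant arrays already known, so its counts and medians are descriptions too.

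The RNA came from whole spinal cords of mouse embryos at e11.5. There were 4 *Hnf6-/-;Oc2-/-* (OC mutant) embryos, which carry null alleles of both *Hnf6* (*Onecut1*) and *Oc2* (*Onecut2*) in every cell, and 5 control embryos, whose alleles the labels do not give beyond the word control. Each Affymetrix MoGene 2.0 ST array was taken as 1 embryo, and all values are log2 signals as deposited. The comparison in the study was made to find genes that act downstream of the Onecut factors in spinal interneurons. The cord was taken whole, so fewer cells of a type and less RNA per cell cannot be told apart.

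A ribosome holds a single copy of nearly every ribosomal protein, and cells make these proteins in matched amounts. Their mRNAs are among the most abundant in dividing progenitors, and most begin at a run of pyrimidines through which nutrient signalling by mTOR sets their translation. The introns of many ribosomal protein genes also release small nucleolar RNAs (snoRNAs), which guide the modification of ribosomal RNA. In mammals, processed copies of ribosomal protein mRNAs are scattered over the genome, so that a probe can match several loci.

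The labels and the arrays were checked first. *Onecut2* read 6.90 ± 0.34 (SD, n = 4) in OC mutant and 7.75 ± 0.20 (SD, n = 5) in control cords, and *Onecut3* 6.29 ± 0.12 (SD, n = 4) in OC mutant and 7.10 ± 0.21 (SD, n = 5) in control cords, in both genes without overlap (p = 0.00794 each by an exact two-sided permutation test, which can give no smaller p with 4 against 5 arrays). *Onecut1* read 7.21 ± 0.08 (SD, n = 4) in OC mutant and 7.33 ± 0.28 (SD, n = 5) in control cords, and no source used here tells whether its feature lies in the deleted part. The array medians over all features lay between 5.23 and 5.31. Progenitor genes (12 of the 12 listed were measured, among them *Sox2*, *Nes* and *Fabp7*) had means per array of 8.10 to 8.34 in OC mutant and 8.18 to 8.37 in control cords, and neuronal genes (12 of 13 listed, among them *Tubb3* and *Stmn2*) 8.79 to 9.14 in OC mutant and 8.80 to 9.32 in control cords. Of the 12 progenitor genes 8 were negative (median −0.15), with 1 lower at an unadjusted limma p under 0.05, and of the 12 neuronal genes 11 were negative (median −0.16), with *Nefl*, *Mnx1* and *Tubb3* lower at that p, where 4.93% of all genes were. The part of these cells in the values of the ribosomal protein genes was not tested. The mean of 3 Y-linked genes was 3.52 on the array of control 2 and 3.77 on that of control 3, against 8.10 to 8.32 on the other 7, so 2 controls lacked the Y signal that all OC mutants had.

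The promoters of 5 genes that the following comparisons turn on are shown first, to set members with a run of pyrimidines at the start beside members without one. RefSeq promoters of assembly GRCm38.p6 (250 bases before to 50 after a start) were at hand for 44 of the 57 genes, with 51 starts. A run of at least 8 C or T that came within 10 bases of the start was found in 23 of these 51 promoters (45.1%), against 13.7% of all 32851 promoters. The word CGGAAG, which holds the core bound by ETS factors, stood on either strand in 31 of the 51 (60.8%), against 16.9% of all promoters, and AAGATGGC, a word like that bound by Yy1, in 2 of the 51 (3.92%), against 2.75%. ATTGAT, the core of sites bound by Onecut factors, stood on either strand (as ATTGAT or ATCAAT) in 3 of the 51 (5.88%), against 7.54% of all promoters. A match is a description of the letters and not of a bound site. The windows below run from 60 bases before to 20 bases after the start, 5′ to 3′, with the longest run of C or T near the start in capitals. Of the 8 genes with a promoter that were lower at an unadjusted limma p under 0.05, 3 held a run of at least 8, against 18 of the 35 members that were neither lower nor higher at that p. Those 3 were *Rpl38* with 10 pyrimidines, *Rps24* with 9 and *Rpl34* with 8. The longest run had 7 in *Rpl10a*, 6 in *Rps23*, 5 in *Rpl19* and 3 in both *Rps15* and *Rpl41*, and it had 3 in *Rpl11*, which was higher at that p. The promoter of *Rps24* is that on chromosome 14, whereas its lower value came from a feature numbered elsewhere and its feature on chromosome 14 gave 0.05. A further feature of *Rps24*, which could not be placed on a chromosome, gave −0.32. The windows shown are *Rpl38* at chr11:114668520-114668599 on the plus strand, *Rpl34* at chr3:130730379-130730458 on the minus strand, *Rps24* at chr14:24490618-24490697 on the plus strand, *Rps23* at chr13:90923062-90923141 on the plus strand and *Rpl11* at chr4:136053374-136053453 on the minus strand.
Rpl38: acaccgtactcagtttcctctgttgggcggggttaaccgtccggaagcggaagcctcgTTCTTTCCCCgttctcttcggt
Rpl34: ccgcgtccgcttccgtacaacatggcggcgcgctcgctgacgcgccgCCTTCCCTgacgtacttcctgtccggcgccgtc
Rps24: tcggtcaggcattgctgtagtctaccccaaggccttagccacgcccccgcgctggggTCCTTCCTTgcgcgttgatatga
Rps23: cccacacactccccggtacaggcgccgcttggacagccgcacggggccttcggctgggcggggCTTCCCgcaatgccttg
Rpl11: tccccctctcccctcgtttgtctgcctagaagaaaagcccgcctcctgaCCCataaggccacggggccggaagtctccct

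Most ribosomal protein genes had lower means in OC mutant than in control spinal cords, but by little and with groups that overlapped. The log2 fold change (OC mutant minus control) was negative for 49 of the 57 genes (86.0%), against 48.7% of all genes. Its median was −0.18, against 0.00 over all genes, and it ran from −0.69 (*Rps20*) to 0.57 (*Rpl11*). None of the 57 passed an adjusted p of 0.05 in limma with Benjamini-Hochberg adjustment over the 22180 genes, where 5 genes (0.0225%) did. At an unadjusted limma p under 0.05, 11 of the 57 were lower, against 4.93% of all genes, and 2 were higher, against 4.81%. In 4 genes all mutant values were smaller than all control values, against 1.79% of all genes, and in 2 genes they were all larger, against 2.15%. The negative share was smaller when each gene was read through the brightest feature whose neighbours in feature number lie on the gene's own chromosome, a choice made after the data were seen: 35 of 53 genes (66.0%) were then negative, with a median of −0.05.

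**Figure D1:**
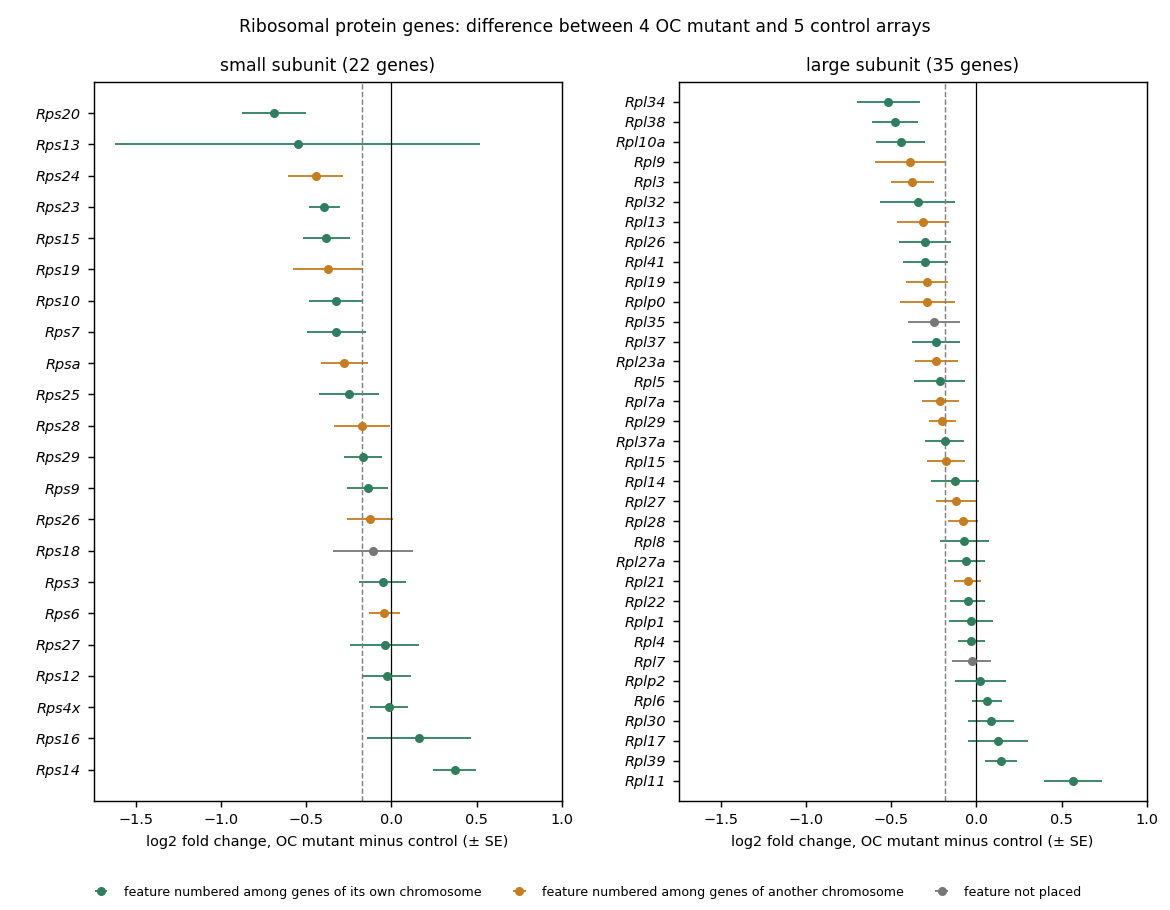
Log2 fold change (OC mutant minus control, ± SE of the limma fit) of the 22 small subunit and 35 large subunit genes, with the subunit's median as a dashed line and the colour giving where the feature's number places it. Most points lie left of 0 in both panels, with *Rps20* lowest at −0.69 and *Rpl11* highest at 0.57, and *Rps13* has by far the widest error.

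The 2 subunits had medians close to each other, and the difference between them was not tested. The small subunit genes had a median of −0.17, with 20 of 22 negative, and the large subunit genes a median of −0.19, with 29 of 35 negative. The mean of the 22 small subunit genes was 7.73, 7.80, 8.15 and 7.84 in OC mutants 1 to 4, against 8.39, 8.19, 7.98, 8.08 and 7.75 in controls 1 to 5. The mean of the 35 large subunit genes was 8.50, 8.55, 8.86 and 8.70 in OC mutants 1 to 4, against 9.06, 8.80, 8.72, 8.79 and 8.68 in controls 1 to 5. OC mutant 3 thus lay among the controls for both subunits, and control 1 lay above every other array. Control 5 lay below OC mutants 2, 3 and 4 for the small subunit, where *Rps13* counts, and without *Rps13* the small subunit means were 7.77, 7.82, 8.18 and 8.06 in the mutants, against 8.38, 8.22, 8.01, 8.12 and 7.96 in the controls.

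**Figure D2:**
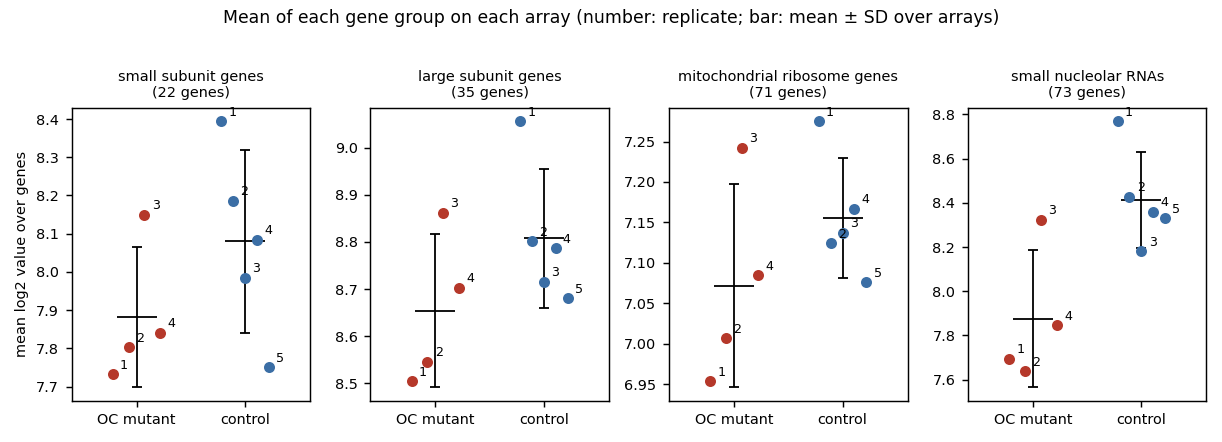
Mean log2 value on each array of 4 gene groups, with OC mutant arrays in red, control arrays in blue, the replicate number beside each point, and the mean ± SD over arrays as a bar. OC mutant 3 and control 1 are the highest arrays of their groups in all 4 panels, and only in the snoRNA panel do 3 of the 4 mutant arrays lie well below all controls.

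The arrays that were high or low were largely the same for all members. OC mutant 3 held the highest of the 4 mutant values in 40 of the 57 genes, and control 1 the highest of the 5 control values in 45. The lowest of all 9 values fell on OC mutant 1 in 26 genes and on OC mutant 2 in 17, whereas control 1 held it in 0. After the group means were taken out, the correlation between 2 members over the 9 arrays had a median r of 0.65, and 38 of the 57 members (66.7%) correlated above 0.7 with the mean of the others, against 9.89% of all other genes with that mean. Arrays and the normalization are shared by all these genes, so this describes how they moved together within the groups and not independent agreement. *Rps16* (r = −0.42), *Rps23* (−0.28), *Rpl39* (−0.26) and *Rpl11* (−0.15) were the 4 members that correlated negatively with the others. The median over the members changed with 2 arrays in particular: it was −0.12 without control 1 and −0.24 without OC mutant 3, and the count of lower genes at an unadjusted limma p under 0.05 was 6 without OC mutant 2 and 23 without OC mutant 3.

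Among small subunit genes, *Rps20* had the lowest log2 fold change of the family. Its protein sits in the head of the subunit, near the mRNA. *Rps20* (feature 17422988) read 4.43, 4.53, 4.90 and 4.93 in OC mutants 1 to 4, against 6.02, 5.45, 5.18, 5.21 and 5.08 in controls 1 to 5. All 4 mutant values lay below all 5 control values, although these signals stand below or near the median of the arrays. Its log2 fold change was −0.69 (SE 0.19, limma adjusted p = 0.335; exact two-sided permutation test, p = 0.0159), and a second, dimmer feature of *Rps20* (17422980) gave −0.17 (SE 0.12).

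*Rps23*, whose protein lies in the decoding centre, had the smallest p of the family. Its feature read 6.72, 6.77, 6.72 and 6.95 in OC mutants, against 7.09, 7.28, 7.27, 7.07 and 7.20 in controls. The groups did not overlap, and *Rps23* was not highest on control 1, as 40 of the members were. The log2 fold change was −0.39 (SE 0.09), with an adjusted p = 0.227 in limma and p = 0.00794 in the exact permutation test, and it ran from −0.45 to −0.33 over the alternative settings.

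*Rps24* and *Rps15*, whose proteins serve in the maturation and export of the small subunit, were also lower at an unadjusted p under 0.05. *Rps24* read 9.06, 8.81, 9.42 and 9.18 in OC mutants, against 10.02, 9.66, 9.28, 9.43 and 9.41 in controls. OC mutant 3 lay inside the range of the controls, and the log2 fold change was −0.45 (SE 0.16, limma adjusted p = 0.417). This feature of *Rps24* is numbered among genes of chromosome 10, whereas the gene is on chromosome 14, and its feature on chromosome 14 gave 0.05 (SE 0.25). A further feature of *Rps24*, which could not be placed on a chromosome, gave −0.32 (SE 0.14). *Rps15* read 4.02, 3.81, 4.02 and 4.09 in OC mutants, against 4.29, 4.42, 4.02, 4.78 and 4.30 in controls, which gave −0.38 on the log2 scale (SE 0.14, adjusted p = 0.412 in limma), with control 3 among the mutants and with all signals low.

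*Rps14*, which encodes a protein of the platform of the small subunit and is the gene whose reduced dose causes the anemia of the human 5q syndrome, ran the other way. It read 5.68, 5.71, 6.26 and 6.16 in OC mutants, against 5.61, 5.57, 5.67, 5.55 and 5.52 in controls. Every mutant value lay above every control value, but OC mutants 1 and 2 did so by little. Its log2 fold change was 0.37 (SE 0.13, limma adjusted p = 0.400; exact permutation test, p = 0.00794), and it ran from 0.27 without OC mutant 3 to 0.46 without OC mutant 1.

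Other small subunit genes with a known role in mice or humans had overlapping groups. *Rps19*, the gene most often mutated in Diamond-Blackfan anemia, had a log2 fold change of −0.37 (SE 0.20), read through a feature numbered among genes of another chromosome, and −0.05 on the feature of its own chromosome. *Rps7*, mutations of which disturb the skeleton and the nervous system in mice, had −0.32 (SE 0.18). *Rps6*, whose protein is the target of S6 kinase, had −0.04 (SE 0.09). Their exact permutation p-values were 0.190, 0.159 and 0.579.

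*Rps13* was the member with the widest spread, and a single sample of each group made it so. Its only feature of its own (17493182) read 6.87, 7.42, 7.61 and 3.28 in OC mutants 1 to 4, against 8.67, 7.55, 7.36, 7.31 and 3.34 in controls 1 to 5. OC mutant 4 and control 5 thus lay more than 3 log2 units below the next array, and of all features of the array this was the only 1 in which both arrays lay more than 2 log2 units below the other 7. The annotation shares 3 further features between *Rps13* and other symbols. The brightest of them, shared with *Rps13-ps4* and *Gm15483* (17503531), read 7.79, 7.93, 8.42 and 9.01 in OC mutants, against 6.99, 8.43, 8.27, 8.50 and 9.07 in controls. On that feature OC mutant 4 and control 5 were the highest and control 1, the highest on the first feature, was the lowest. For *Rps13* the log2 fold change was −0.55 (SE 1.07, limma adjusted p = 0.909) on its own feature and 0.04 (SE 0.36) on the brightest shared one, with errors larger than the differences. The other feature shared with *Rps13-ps4* and *Gm15483* (17495404) gave 0.20 (SE 0.22), again with OC mutant 4 and control 5 highest of their groups and control 1 lowest, and that shared with *Snord14a* (17495412) gave −0.13 (SE 0.12).

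*Rps16* and *Rps18* had wide spreads as well. *Rps16* read 4.84, 5.59, 3.75 and 4.16 in OC mutants, against 4.37, 4.64, 4.44, 4.70 and 3.98 in controls, and the mutants surrounded the controls on both sides (log2 fold change 0.16, SE 0.31). A brighter feature shared between *Rps16* and 2 other symbols, 1 of them a pseudogene, gave −0.44 (SE 0.18). *Rps18* ran from 6.18 to 7.19 in OC mutants and from 6.47 to 7.38 in controls, with a log2 fold change of −0.11 (SE 0.24). This feature of *Rps18* could not be placed on a chromosome. The *Rps18* feature of its own chromosome gave −0.27 (SE 0.11) at a mean signal of 4.52, and a further one gave −0.10 (SE 0.10).

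Among large subunit genes, *Rpl38* and *Rpl34* had the lowest log2 fold changes. *Rpl38* encodes a small protein at the surface of the large subunit, and its loss in the mouse mutant Tail short alters the axial skeleton and the translation of Hox mRNAs. *Rpl38* read 9.91, 10.15, 10.52 and 9.97 in OC mutants, against 10.88, 10.67, 10.48, 10.60 and 10.46 in controls. Only OC mutant 3 reached the controls, 2 of which it exceeded. The log2 fold change was −0.48 (SE 0.14, 0.716-fold), with limma adjusted p = 0.343 and an exact permutation p = 0.0238, and it ran from −0.61 without OC mutant 3 to −0.41 without OC mutant 1.

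*Rpl34* read 5.91, 5.34, 6.002 and 6.47 in OC mutants, against 6.50, 6.60, 6.48, 6.45 and 6.21 in controls. OC mutant 4 lay within the controls and OC mutant 2 far below all other arrays. Its log2 fold change was −0.52 (SE 0.18, limma adjusted p = 0.412). A brighter feature shared between *Rpl34* and a pseudogene gave −0.13 (SE 0.12).

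*Rpl10a*, whose protein lies in the L1 stalk near the exit for tRNA, read 8.17, 8.32, 8.78 and 8.52 in OC mutants, against 9.21, 8.97, 8.83, 8.67 and 8.80 in controls. OC mutant 3 lay above control 4 only. The log2 fold change was −0.45 (SE 0.14, limma adjusted p = 0.366; exact permutation test, p = 0.0317).

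*Rpl41*, *Rpl19* and *Rpl29* were brighter and differed less. *Rpl41*, which encodes the shortest ribosomal protein, read 11.42, 11.34, 11.90 and 11.56 in OC mutants, against 12.16, 11.85, 11.68, 11.84 and 11.75 in controls, a difference of −0.30 (SE 0.13, adjusted p = 0.500 in limma). All 5 features of *Rpl41* were negative, between −0.63 and −0.22, although 3 of them are numbered among genes of other chromosomes. *Rpl19* read 11.12, 11.14, 11.60 and 11.40 in OC mutants, against 11.84, 11.59, 11.41, 11.65 and 11.54 in controls, a difference of −0.29 (SE 0.12, adjusted p = 0.484 in limma), and its feature of the own chromosome gave −0.22. *Rpl29* had one of the narrowest spreads of the family and read 12.26, 12.21, 12.35 and 12.34 in OC mutants, against 12.63, 12.49, 12.45, 12.44 and 12.45 in controls. Its groups did not overlap (log2 fold change −0.20, SE 0.08, limma adjusted p = 0.471; exact permutation test, p = 0.00794), and control 1 stood off from the other controls. This feature of *Rpl29* is numbered among genes of chromosome 1, whereas the gene is on chromosome 9. On its feature of chromosome 9 the groups overlapped, with −0.25 (SE 0.21).

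*Rpl11* and *Rpl5* bind the 5S ribosomal RNA, and their free form binds Mdm2, the ubiquitin ligase of p53, when ribosome assembly is disturbed. *Rpl11* read 6.73, 6.77, 6.36 and 6.41 in OC mutants, against 6.22, 5.47, 6.23, 6.25 and 5.82 in controls. Every mutant value lay above every control value, and OC mutants 3 and 4 did so by little. In limma, its log2 fold change was 0.57 (SE 0.17, limma adjusted p = 0.352; exact permutation test, p = 0.00794), and it ran from 0.44 without control 2 to 0.64 with array weights. *Rpl5* had a log2 fold change of −0.22 (SE 0.15), with overlapping groups, and −0.55 (SE 0.17) on a feature shared with a pseudogene.

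**Figure D3:**
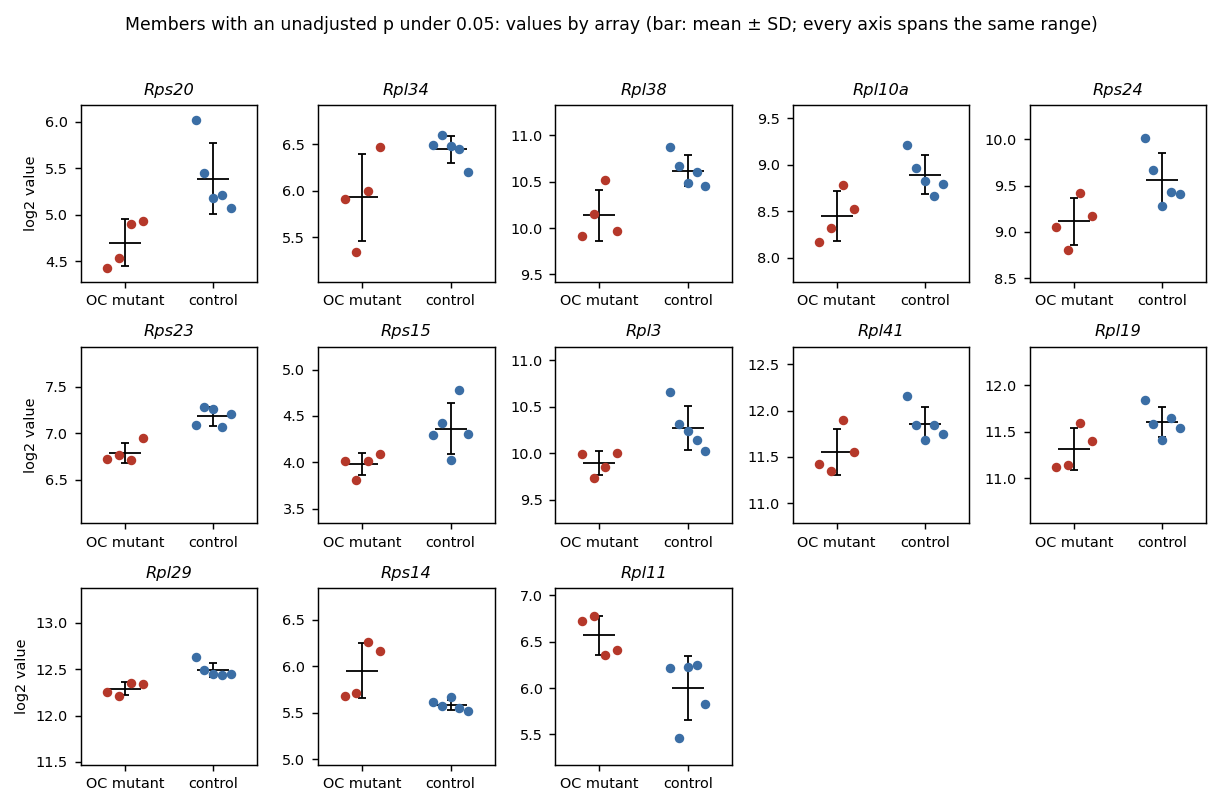
Log2 values by array of the 13 members with an unadjusted limma p under 0.05, OC mutant arrays in red and control arrays in blue, with the mean ± SD as a bar and axes that all span the same range. The groups of *Rps20*, *Rps23*, *Rpl3* and *Rpl29* do not overlap with the mutants lower, nor those of *Rps14* and *Rpl11* with the mutants higher, and the other 7 overlap.

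Of the remaining large subunit genes, *Rpl22*, which mice need for the development of T cells, had a log2 fold change of −0.05 (SE 0.10). *Rpl4*, whose protein lines the tunnel for the growing peptide, had the narrowest spread of all members: it read 11.90 to 12.02 in OC mutants and 11.94 to 12.11 in controls, with a log2 fold change of −0.03 (SE 0.08). *Rpl21* (−0.05, SE 0.08) and *Rpl28* (−0.08, SE 0.09) were as steady, and *Rpl32*, among the most variable, had −0.35 (SE 0.22). *Rpl24* and *Rpl10* have no feature of their own. *Rpl24*, mutated in the mouse Belly spot and tail, is read by 3 features shared with *Zbtb11*, which gave −0.43, 0.11 and 0.16, and *Rpl10*, mutated in human neurodevelopmental disorders, by 3 shared features, which gave −0.24, 0.01 and 0.09. The proteins of the P stalk, which recruit elongation factors, had −0.29 (*Rplp0*), −0.03 (*Rplp1*) and 0.02 (*Rplp2*). The last came from a feature with a mean signal of only 4.39, and a brighter *Rplp2* feature shared with *Snora52* (mean 9.45) gave −0.63 (SE 0.20). The second features of *Rplp0* and *Rplp1* gave 0.22 (SE 0.13) and −0.31 (SE 0.15).

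Which feature stood for a gene bore on the result. Consecutive feature numbers of the array follow the genome: 99.6% of the placed features of other genes were numbered among genes of their own chromosome. Among the brightest features of the 57 members this held for 36, whereas 18 were numbered among genes of another chromosome and 3 could not be placed. All 18 had a negative log2 fold change (median −0.22), and of the 36 on their own chromosome 28 were negative (median −0.13). For 14 genes both kinds of feature were measured. Their features elsewhere were negative in 14 of 14, with a median of −0.28, and those on the own chromosome in 6 of 14, with a median of 0.06. In all 14 genes the feature elsewhere was also the brighter one, with a median signal of 10.29 against 6.36. Place and signal level thus cannot be told apart in these genes. The mean over the 14 genes was 10.04, 10.02, 10.47 and 10.31 in OC mutants on the features elsewhere, against 10.78, 10.52, 10.31, 10.42 and 10.31 in controls. On the own chromosome it was 5.96, 5.85, 6.18 and 5.94 in OC mutants, against 6.14, 6.02, 5.92, 5.88 and 5.81 in controls.

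Single genes showed this as well. *Rpl3*, which encodes a protein close to the peptidyl transferase centre, read 9.995, 9.74, 9.86 and 10.0001 in OC mutants on its brightest feature, against 10.66, 10.32, 10.24, 10.14 and 10.02 in controls, without overlap (log2 fold change −0.38, SE 0.13, limma adjusted p = 0.390; exact permutation test, p = 0.0159). On the brighter feature numbered among genes of its own chromosome the log2 fold change of *Rpl3* was 0.30 (SE 0.15). A dimmer feature there, with a mean signal of 4.45, gave −0.42 (SE 0.14). *Rplp0* gave −0.29 (SE 0.16) on its brightest feature and 0.22 (SE 0.13) on its own chromosome, and *Rpl9* −0.39 (SE 0.21) and 0.30 (SE 0.10), the last on a feature of a mean signal of only 3.71. Over the 23 genes with at least 2 distinct features, the brightest features were all negative, with a median of −0.21, and the second brightest were negative in 15, with a median of −0.08. Within the groups, the first and second feature of a gene had a median r of 0.71 over 9 arrays, little above the 0.65 between different members. This r was negative for *Rps18* (−0.82), *Rps26* (−0.43), *Rplp0* (−0.22) and *Rpl7* (−0.07) and positive for the others.

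**Figure D4:**
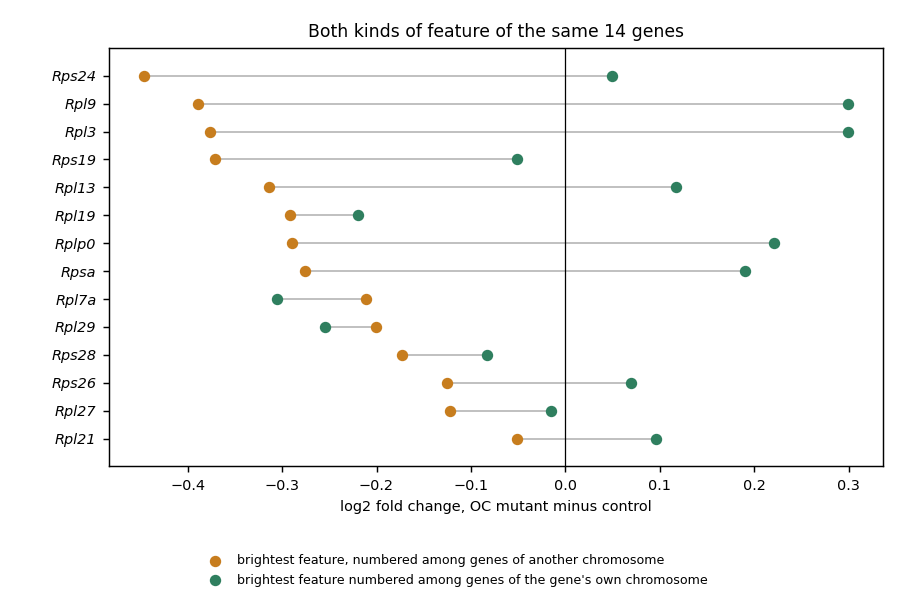
Log2 fold change (OC mutant minus control) of the 14 genes for which a brightest feature numbered among genes of another chromosome (orange) and a feature on the gene's own chromosome (green) were both measured, joined by a line for each gene. All 14 orange points lie left of 0, and 8 of the 14 green points lie right of it.

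The brightest members were all negative, and the dimmer ones were mixed. Of the 57 features, 32 stood among the brightest 10% of all genes, and all 32 were negative, with a median of −0.19, whereas the 2186 other genes of that class had a median of 0.01 and 46.7% negative. Of the 25 members below that class, 17 were negative, with a median of −0.17, close to that of the brightest. Among them, of the 12 members with a mean signal under 6, 5 were negative, with a median of 0.04. A bright feature of this family can match many processed copies of its mRNA, and what share of its signal comes from the parent gene was not tested.

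Features that the annotation shares between a member and other symbols had a negative median too. Of 57 such features, 45 were negative, with a median of −0.22, and they stand for 12 of the 19 genes of the family that have no feature of their own. With an unadjusted p under 0.05 in limma, 20 were lower and 1 was higher, against 5.06% and 4.83% of the 25341 features with 1 or several symbols. The 1 higher feature is shared between *Rps12* and 9 other symbols (0.61, SE 0.20). A feature shared between *Rpl13a* and the snoRNA *Snord32a* was the only one of the 57 that passed the adjusted p, where 0.0237% of these features did. It read 11.63, 11.72, 11.97 and 11.71 in OC mutants, against 12.60, 12.59, 12.53, 12.50 and 12.48 in controls, a difference of −0.78 on the log2 scale (SE 0.09, adjusted p = 0.0184 in limma). All 4 mutant arrays lay clearly below all 5 controls, and the letters of its probes were not used here, so whether it reads *Rpl13a* or *Snord32a* was not tested. Other features of *Rpl13a* gave −0.76 (SE 0.12) where shared with *Snord34* and −0.23 (SE 0.12) where shared with *Snord33* and *Mir5121*. The *Rpl13a* feature shared with *Flt3l*, which has no snoRNA symbol, gave −0.08 (SE 0.09).

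The snoRNAs that lie inside ribosomal protein genes had lower log2 fold changes than most of their hosts, a difference that was not tested. RefSeq places 58 snoRNA genes inside 29 genes of the family, of which 18 had a feature of their own. All 18 were negative, with a median of −0.68, and 15 were lower at an unadjusted limma p under 0.05, where 4.93% of all genes were, while 0 of the 18 passed the adjusted p. In 11 of 12 pairs in which snoRNA and host were both measured, the snoRNA had the lower log2 fold change, and the median was −0.75 over the snoRNAs and −0.05 over their 11 hosts. *Snord16a* inside *Rpl4* read 9.69, 9.82, 10.57 and 9.88 in OC mutants, against 11.32, 11.19, 10.85, 10.75 and 10.84 in controls. Its groups did not overlap (log2 fold change −1.002, SE 0.18, limma adjusted p = 0.124), whereas *Rpl4* itself gave −0.03. *Snord58b* inside *Rpl17* gave −1.28 (SE 0.22, limma adjusted p = 0.106), against 0.13 (SE 0.18) for *Rpl17*, and *Snora69* inside *Rpl39* −1.09 (SE 0.28), against 0.14 (SE 0.09) for *Rpl39*. Some hosts were read through dim features, with mean signals of 3.63 for *Rpl17*, 4.50 for *Rps16* and 5.80 for *Rpl39*. A feature shared between *Rpl39* and other symbols gave −0.34 (SE 0.13). Host values at such low signals do not show that the host was unchanged. These snoRNAs were named after their values were seen.

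**Figure D5:**
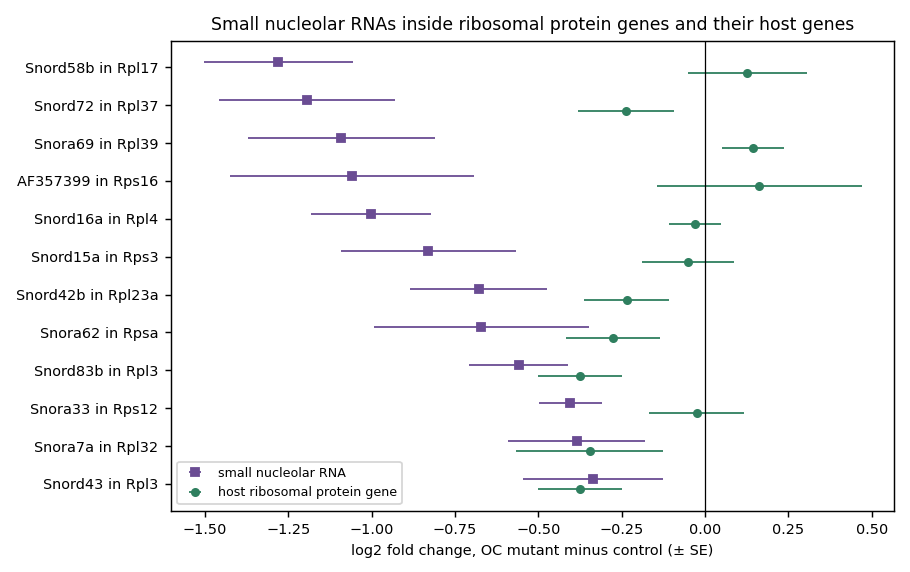
Log2 fold change (OC mutant minus control, ± SE of the limma fit) of 12 snoRNAs that lie inside ribosomal protein genes (squares) and of their host genes (circles). All squares lie left of 0, from −1.28 to −0.34, and the circles lie between −0.38 and 0.16.

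Over all 73 snoRNAs with a Snora or Snord symbol, the mean per array was 7.70, 7.64, 8.32 and 7.85 in OC mutants, against 8.77, 8.43, 8.18, 8.36 and 8.33 in controls. Of these 73, 68 were negative, with a median of −0.53, and 43 (58.9%) were lower at an unadjusted limma p under 0.05, against 4.93% of all genes. Negative log2 fold changes were thus not limited to the snoRNAs of ribosomal protein genes. OC mutant 3 and control 1 were the highest of their groups here too, as they were for the ribosomal protein genes. The part of this snoRNA difference in the values of the ribosomal protein features was not tested.

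The related proteins of the ribosome gave a mixed picture. *Fau*, which encodes the small subunit protein eS30 as a fusion with a ubiquitin-like protein, read 10.39 on average over the 9 arrays and had every mutant value below every control value (log2 fold change −0.46, SE 0.13, limma adjusted p = 0.347). *Rps3a1* gave −0.20 (SE 0.15). The paralogs *Rpl22l1* (0.15), *Rps27l* (−0.09), *Rpl39l* (−0.17), *Rpl3l* (−0.07), *Rpl7l1* (0.02), *Rpl10l* (0.01) and *Rps4l* (−0.03) had overlapping groups. *Rpl32l* read 0.59 higher (SE 0.10, limma adjusted p = 0.116) without overlap, at a mean signal of 2.99. Of the 15 genes annotated as ribosomal protein pseudogenes, 9 were negative (median −0.11) and 3 were lower at an unadjusted p under 0.05, among them *Rps19-ps3* (−0.39, SE 0.10). The 71 proteins of the mitochondrial ribosome had a median of −0.06, with 49 negative, 11 lower and 2 higher at that p. Of all genes, 48.7% were negative, and 4.93% were lower and 4.81% higher at that p. The pseudogenes and the mitochondrial set thus held larger shares of negative and of lower genes than all genes did, as the ribosomal protein genes did. These differences in share were not tested.

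Genes that build or regulate ribosomes had medians near 0. Of 50 listed ribosome biogenesis factors, 46 were measured, of which 17 were negative (37.0%, against 48.7% of all genes, median 0.06). With an unadjusted limma p under 0.05 there were 2 lower (4.3%) and 7 higher (15.2%). At that p, here and in the lists below, 4.93% of all genes were lower and 4.81% higher. *Brix1* (0.38, SE 0.08, limma adjusted p = 0.197) and *Rrs1* (0.46, SE 0.11, adjusted p = 0.282 in limma), which act in large subunit assembly and of which Rrs1, in yeast, brings in the 5S particle with the counterparts of Rpl5 and Rpl11, lay higher on every mutant array than on every control array, and *Heatr1* gave 0.32 (SE 0.11). Of 12 chaperones and import factors, 1 was lower and 1 higher, *Btf3* (−0.29) and *Ipo5* (0.29). Of 31 translation factors, 17 were negative (median 0.00) and 4 were lower (12.9%), led by *Eif3k* (−0.40, SE 0.12), *Eif4a1* (−0.27, SE 0.09) and *Eif3i* (−0.36, SE 0.14). Among 17 regulators of translation by nutrients and S6 kinase, only *Rheb*, which activates mTOR, had a p under 0.05 (−0.18, SE 0.08). Of 18 genes of the p53 axis and its targets, 9 were negative, with *Bbc3* (−0.35, SE 0.12) lower and *Mdm4* (0.21, SE 0.08) and *Polk* (0.25, SE 0.12) higher. No gene of these lists passed the adjusted p.

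Markers of cells beside the neural tube varied between arrays in part with the family. The mean over 12 mesenchyme and cartilage genes ran from 7.37 to 8.11 in OC mutants and from 7.33 to 8.54 in controls, with control 1 highest. Of the 12, 11 were negative, against 48.7% of all genes. Over 7 blood genes (of 14 listed), with *Hbb-y* at 11.54, it ran from 6.90 to 7.74 in OC mutants and from 7.24 to 7.79 in controls, with OC mutant 3 and control 1 highest of their groups. Of these 7, 6 were negative (median −0.07). Over 9 muscle genes it ran from 4.91 to 5.66 in OC mutants and from 5.27 to 5.78 in controls, again with OC mutant 3 and control 1 highest. Of these 9, 8 were negative (median −0.20). *Myog* (−0.54, SE 0.19) and *Tnnt3* (−0.36, SE 0.11) were lower at an unadjusted limma p under 0.05, where 4.93% of all genes were. The part of such tissue in the values of the ribosomal protein genes was not tested.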

How the data were processed

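Total RNA of dissected cords was labelled with the WT PLUS kit and hybridised by the authors, who deposited 1 log2 value per feature and array. Background correction, summarisation and normalization are not given in the sources used here. Features were named through the platform annotation: 23521 have 1 symbol, 1820 several, and 16004 are not listed. Symbols were updated through RefSeq identifiers (23328 matched), and the brightest single-symbol feature stood for a gene, with no filter. All 22180 genes were fitted in limma (version 3.58.1, under R version 4.3.3) by lmFit and eBayes, as OC mutant minus control without covariates and with 4.47 prior degrees of freedom, and p-values were adjusted by Benjamini-Hochberg with a threshold of 0.05. The step was tested on simulated data. Single members also had an exact two-sided permutation test over 126 assignments. The fifth mutant embryo of the series text was not analysed here. For arrays, their number limits the precision.

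A feature was placed on a chromosome where at least 8 of the 10 features numbered next to it had genes of that chromosome. Genes named are members with an unadjusted p under 0.05 or without overlap, the 4 most and 4 least variable members, members with a known phenotype, members whose second feature differed in sign with both over 0.2 in size, and up to 3 genes of each other list. The members and lists were chosen with earlier results of these data known. Alternatives were the mean of a gene's features, features with several symbols kept, the dimmest 1/3 of genes left out, quantile normalization, median centring, trend and robust settings, array weights, the replicate block, a Y-linked covariate and each array left out. Chosen after seeing the data were own-chromosome features, arrays high in Y-linked genes only and protein-coding genes only.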

Additional observations from a re-analysis of the deposited data

Results flagged for a closer look

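A single array stood apart from the rest of its group in 4 of the 60 groups of arrays looked at. These were the mutant and control values of the named members and of the 3 family means. Chance alone would flag about 3 of 60 groups not chosen by their spread. *Rps13*, *Rpl29* and *Rpl4* were named for their spread, so the 4 flags cannot be set against that number. *Rps13* read 3.28 in OC mutant 4, with the next mutant at 6.87. The same feature read 3.34 in control 5, with the next control at 7.31. *Rpl29* read 12.63 in control 1, with the next control at 12.49. *Rpl4* read 12.11 in control 1, with the next control at 11.98.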

How the results depend on the processing

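None of the 57 members passed the adjusted p of limma under any of the 21 alternatives. The lowest adjusted p of a named member in them was 0.0967 (*Rpl38*, without OC mutant 3). The 12 further genes of the family that come in when features of several symbols are kept were not counted there. *Rpl13a* is among these 12, and its feature shared with *Snord32a* passed the adjusted p over all features (0.0184 in limma). With features of the own chromosome, 35 of 53 members were negative, the median was −0.05 (small subunit −0.08, large subunit −0.04), and 9 were lower and 3 higher at an unadjusted p under 0.05. With all of a gene's features averaged the median was −0.13, with features of several symbols kept −0.21 and under quantile normalization −0.15, where the median of all genes was −0.02. With 1 array left out at a time, 42 to 50 members were negative, the median lay between −0.24 and −0.12 (small subunit −0.27 to −0.09, large subunit −0.23 to −0.13, second features −0.11 to −0.03), and 6 to 23 members were lower at an unadjusted p, with 2 higher throughout. The cause was not tested.

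With the replicate block, control 5 falls out, the median was −0.21, and 9 members were lower and 2 higher. Same-numbered arrays deviated apart (r from −0.39 to −0.13). So few pairs cannot tell whether a number stands for something shared, such as a litter or a day. In the labels the numbers only name samples. The block changed no call over all genes among the members. Of 563 pairs of a named member and an alternative, 15 turned direction. With own-chromosome features these were *Rpl21* (0.096), *Rpl3* (0.30), *Rpl9* (0.30), *Rplp0* (0.22) and *Rps24* (0.049). With averaged features *Rpl4* gave 0.081, and under quantile normalization 0.0068. With features of several symbols kept, *Rps13* gave 0.036 and *Rps16* −0.44. With 1 array left out at a time, *Rpl22* ran from −0.095 to 0.0036, *Rps6* from −0.077 to 1.1e-04, *Rps13* from −1.43 to 0.45, *Rps16* from −0.17 to 0.44 and *Rps18* from −0.24 to 0.10.

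The number of arrays limits these results, as does background at low signal: 12 members had a mean signal under 6, of 3.62 to 5.80, on both sides of the array medians.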
